A study of Mus musculus with 6 samples.

Results

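Of 15415 listed genes, 9 genes of the inflammasome and of pyroptosis were followed by symbol, namely *Nlrp3*, *Nlrp1b*, *Naip2*, *Naip5*, *Aim2*, *Pycard*, *Casp1*, *Casp4* and *Gsdmd*, and all 9 were found. They were measured by RNA sequencing of peritoneal macrophages (PEMs) in 6 libraries. The genotype of 3 of them was LysM-Cre; *Tim-4* fl/fl (knockout libraries 1 to 3), in which the *Lyz2* (lysozyme M) promoter drives Cre in myeloid cells and the floxed *Tim-4* is lost there. The other 3 were *Tim-4* fl/fl (control libraries 1 to 3), whose mice carry the floxed allele and no Cre, so the deletion and the Cre allele cannot be told apart. All 6 libraries are labelled as treated with LPS, and the study's methods describe PEMs drawn into the peritoneal cavity by starch. No library without LPS was analysed here. By the study's methods the floxed mice were C57BL/6J, and the mice used were young adult males. The number of mice behind a library is not given in the sources used here, so p-values measure the spread between these libraries. In the labels, titles and genotype entries contradict each other on which group is which, and the titles were followed here. Under the titles, the targeted gene *Timd4* was lower in every knockout library than in any control library, with values given below.

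Inflammasomes are cytosolic complexes that start an inflammatory form of cell death. A sensor protein (NLRP3, NLRP1B, a NAIP together with NLRC4, or AIM2) meets a microbial or danger signal, and most sensors then recruit the adaptor ASC, the product of *Pycard*, which clusters caspase-1. Caspase-1 matures interleukin-1β and interleukin-18 and cuts gasdermin D, whose fragment opens pores in the membrane, while caspase-11, the product of mouse *Casp4*, binds LPS in the cytosol and cuts gasdermin D without a separate sensor. In macrophages several of these genes are induced by LPS itself or by interferon, a step called priming.

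Values are FPKM, that is, reads scaled to the length of the gene and to the reads counted in the library, and between 36170767 and 42217558 reads per library fell on the listed genes. The targeted gene *Timd4* did not exceed 0.394 FPKM in a knockout library, and measured 19.5, 12.0 and 1.19 FPKM across the controls (1 to 3). The knockout libraries held 41.4, 4656 and 106 FPKM of *Lyz2* and the controls 7090 to 8482 FPKM, so knockout library 2 kept a high *Lyz2* level and control library 3 had a low *Timd4* level. Transcripts of other cells differed as well, since the summed level of 6 B cell markers was 2.85 to 5.78 FPKM in the knockout and 28.8 to 121 FPKM in the control libraries, and that of 6 mast cell markers 1.89 to 2.27 against 38.2 to 49.3 FPKM. The sum of 6 macrophage markers was 2295 to 2470 FPKM in the knockout and 1640 to 2181 FPKM in the control libraries, so macrophage transcripts were abundant in every library. *Cd68* was the largest term of that sum in every library, at 1572 to 1685 against 816 to 1379 FPKM, while *Csf1r* was at 83.3 to 143 against 151 to 179.6 FPKM, and neither passed the test (adjusted p = 0.0989 and 0.0903 from limma).

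In the comparison of knockout with control libraries, *Casp4* rose and *Naip2* fell, while *Nlrp3*, *Casp1*, *Pycard*, *Gsdmd* and *Naip5* did not pass the test. *Casp4* was just inside the threshold and kept it in 6 of 13 alternative ways of processing, and *Naip2* in 10. *Aim2* was higher in every knockout library and passed only with the replicate number as a block. Of the 9 genes, 8 reached a mean of at least 1 FPKM in one group and were tested on log2(FPKM + 1) with limma among 9030 genes. At an adjusted p below 0.05, 2 of the 8 passed, 1 higher and 1 lower, where 7.31% of all genes tested passed (2.57% higher and 4.74% lower). The groups did not overlap in 4 of the 8 genes, against 34.1% of all genes tested. The median log2 fold change of the 8 genes was -0.0030, beside -0.11 over all genes tested. After rescaling by the median of ratios these medians were 0.14 and 0.012. With 3 libraries against 3, an exact permutation test of a single gene cannot give a two-sided p below 0.1.

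**Figure D1:**
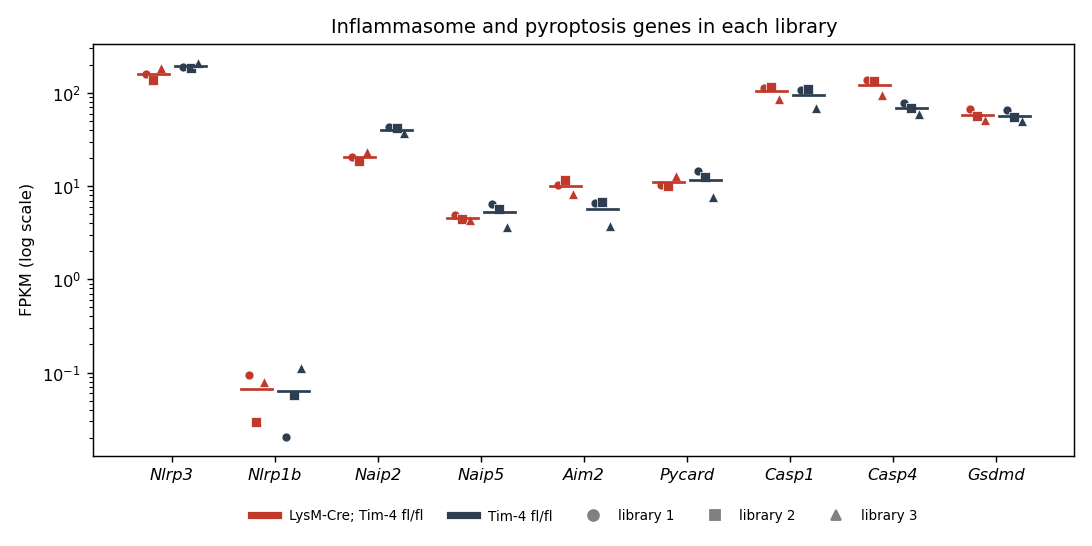
FPKM (log scale) of the 9 genes in each of the 6 libraries, with knockout libraries in red and control libraries in dark blue, a marker shape per library number and a bar at the group mean. *Casp4* and *Aim2* sit higher and *Naip2* and *Nlrp3* lower in all 3 knockout libraries, and *Nlrp1b* stays at or below 0.111 FPKM.

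Per length of gene, *Nlrp3* had the highest level in the control libraries, at 186 to 211 FPKM. *Casp1*, *Casp4* and *Gsdmd* followed, and the ranges of *Casp1* and *Casp4* (69.3 to 109.9 and 58.6 to 78.0 FPKM) and of *Casp4* and *Gsdmd* (49.4 to 65.0 FPKM) overlapped. *Naip2* came next at 36.8 to 42.5 FPKM. *Pycard* was lower, and *Aim2* and *Naip5* were lower still with overlapping ranges of 3.73 to 6.78 and 3.61 to 6.49 FPKM. In the knockout libraries *Naip2* stayed in the same place, and the ranges of *Casp4* and *Casp1* still overlapped, but those of *Casp4* (95.2 to 139 FPKM) and *Gsdmd* (50.7 to 66.5 FPKM) no longer did. There *Aim2*, at 8.16 to 11.6 FPKM, reached the range of *Pycard* at 10.1 to 13.0 FPKM. This order rests on the gene lengths the authors used, which come to 1489 bases for *Casp4* and 9901 bases for *Aim2* when worked back from FPKM and reads.

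Among the sensors of the 9 genes, *Naip2* (Entrez 17948) was the one that passed the test. NAIP2 recognises the rod protein of bacterial type III secretion systems and then engages NLRC4. Knockout libraries 1 to 3 held 20.6, 18.5 and 23.1 FPKM of *Naip2*, and control libraries 1 to 3 held 42.5, 41.5 and 36.8 FPKM. No knockout library reached the lowest control, and the control mean of 40.3 ± 3.04 FPKM was 1.94-fold the knockout mean of 20.7 ± 2.29 FPKM (SD, n = 3 each). Its log2 fold change was -0.93 (95% confidence interval -1.25 to -0.61, adjusted p = 0.0144 from limma). It lost the threshold without knockout library 1, knockout library 2 or control library 2 (adjusted p = 0.0792, 0.0797 and 0.0883), with log2 fold changes between -0.93 and -0.85. Without control library 3, the one with little *Timd4*, it was -0.99 (adjusted p = 0.00659).

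*Naip5* (Entrez 17951), a close copy of *Naip2* in the same gene cluster, encodes a sensor of flagellin. Its level was 4.85, 4.401 and 4.34 FPKM with the knockout, and 6.49, 5.74 and 3.61 FPKM without it. The groups overlapped, since control library 3 was below all knockout libraries. The log2 fold change was -0.15 (95% confidence interval -0.61 to 0.30, adjusted p = 0.638 from limma). *Naip6*, another flagellin sensor, was at 4.65 ± 0.37 FPKM in the knockout and 4.19 ± 0.54 FPKM in the control libraries (SD, n = 3 each), a log2 difference of 0.13 (adjusted p = 0.568 from limma). *Naip1*, a sensor of the secretion needle, stayed below the filter on low values, with only 13, 9 and 37 reads under the knockout but 221, 162 and 91 reads in the controls. In the fit without that filter its adjusted p was 0.0471. *Naip1* and *Naip6* were named after their values were seen.

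The windows before the start sites of *Naip2* and *Naip5* are shown because the copies are alike there and differed in expression. The sequences are from RefSeq (GRCm38.p6) and hold the 250 bases before the annotated start, 5′ to 3′ along the gene. Capitals near the start mark a site of the ETS family of transcription factors (AGGAAGT on either strand), and those far upstream in *Naip5* a match to the NF-κB consensus, 218 bases before the start. RefSeq windows were matched for 8 of the 9 genes.

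Naip2 (chr13:100202123-100202372, minus strand): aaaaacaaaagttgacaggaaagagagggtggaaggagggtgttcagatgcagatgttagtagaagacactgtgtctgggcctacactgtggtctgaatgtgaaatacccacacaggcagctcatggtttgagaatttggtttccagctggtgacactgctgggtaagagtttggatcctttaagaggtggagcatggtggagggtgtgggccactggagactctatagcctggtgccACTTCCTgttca
Naip5 (chr13:100247337-100247586, minus strand): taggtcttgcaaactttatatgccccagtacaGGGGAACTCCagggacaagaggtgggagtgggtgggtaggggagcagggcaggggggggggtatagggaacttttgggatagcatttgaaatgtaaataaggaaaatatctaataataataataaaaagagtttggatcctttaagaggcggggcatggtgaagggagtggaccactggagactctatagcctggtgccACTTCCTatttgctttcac

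Aligned without gaps, 73 of 80 bases near the start (91.2%) were identical in both, and the longest shared run of 34 bases ended with the ETS match, which began 12 bases before the start in *Naip2* and 19 bases in *Naip5*. At least 1 window of 5 of the 8 genes held this match, as did 7.69% of the 32851 RefSeq windows. The 8 genes had 11 windows, so these are unlike measures. Since the copies are alike, and how reads that match more than one of them were counted is not given in the sources used here, the split of reads between the *Naip* genes is uncertain.

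Of the reads on *Naip1*, *Naip2*, *Naip5* and *Naip6* together, *Naip2* took 61.5% to 65.4% in the knockout and 72.9% to 78.5% in the control libraries. The shares of *Naip6* were 18.9% to 20.3% and 10.2% to 11.3%. These shares were chosen after the values were seen and do not depend on the scaling between libraries. Their groups did not overlap (two-sided exact permutation p = 0.1 for each, the smallest possible). As parts of the same total the shares are not separate results, since a fall in one raises the others. The total on the 4 genes was 6111 to 7010 reads in the knockout and 8235 to 11166 reads in the control libraries. *Nlrc4*, the partner on which all NAIP sensors converge, fell too, from 5.30 ± 0.60 to 1.98 ± 0.71 FPKM (SD, n = 3 each; log2 fold change -1.10, adjusted p = 0.0216 from limma). It was at 1.35 to 2.75 FPKM in the knockout and 4.69 to 5.88 FPKM in the control libraries. Like *Naip2*, it lost the threshold without knockout library 1, knockout library 2 or control library 2 (adjusted p = 0.101, 0.0944 and 0.108), and it also did so without a filter on low values (adjusted p = 0.0505).

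**Figure D2:**
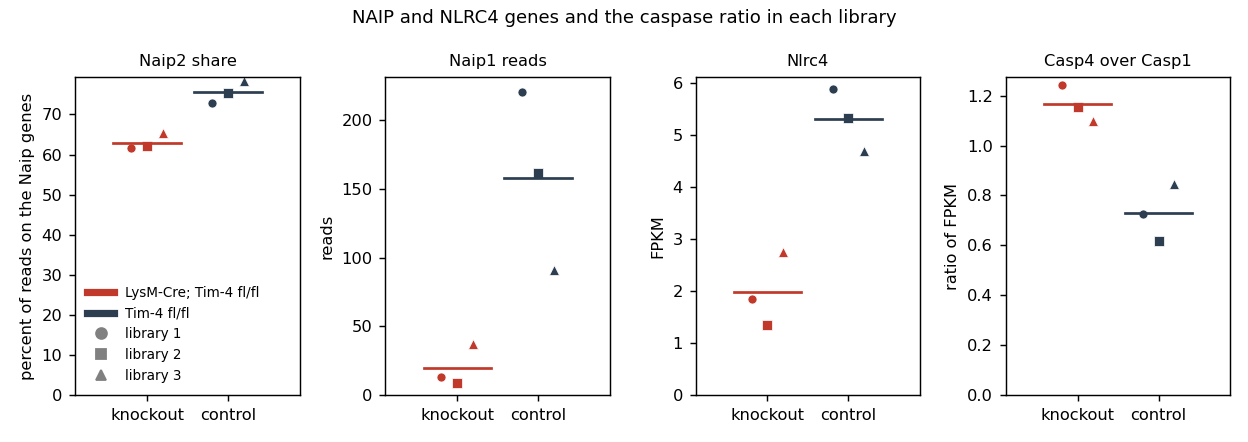
Per-library values of the *Naip2* share of reads on the 4 *Naip* genes (percent), *Naip1* reads, *Nlrc4* FPKM and the ratio of *Casp4* to *Casp1* FPKM, with bars at the group means and all axes from 0. In every panel the 3 knockout and the 3 control libraries are apart, as in the *Naip2* share of 61.5% to 65.4% against 72.9% to 78.5%. The share, *Naip1* and the ratio were chosen after the values were seen, and *Nlrc4* because it passed the test. The groups did not overlap in 34.1% of all genes tested.

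*Naip2* and *Nlrc4* fell in the libraries that also held fewer marker transcripts of large peritoneal macrophages, B cells and mast cells. The markers of large peritoneal macrophages, the resident type, summed to 4.71 to 9.71 FPKM in the knockout and 43.3 to 154 FPKM in the control libraries, and 3 of 5 tested fell (*Icam2*, *Vsig4* and *Prg4*). The sum and the 5 tested include the targeted gene *Timd4*, but *Prg4* alone was at 2.33 to 3.99 against 30.1 to 114 FPKM. None of the 5 passed without control library 2, 1 did without knockout library 1, and all 5 did without control library 3. All 6 B cell markers and all 5 tested mast cell markers fell, but with voom only 2 markers of large peritoneal macrophages and 1 of B cells passed. After the rescaling 4 of B cells passed. With the block 4 of mast cells passed, and 4 of large peritoneal macrophages, *Timd4* among them. Without knockout library 1, knockout library 2 or control library 2, no B cell marker passed. Neutrophil markers summed to 83.5 to 108 FPKM against 189 to 218 FPKM, and 1 of 5 tested, *S100a8*, fell, while 2 passed with the block. *S100a8* set the gap, at 39.9 to 70.5 against 156 to 171 FPKM. It lost the threshold without knockout library 1 or control library 2 (limma adjusted p = 0.0603 and 0.0824). *Csf3r*, the other abundant one, was at 29.1 to 49.2 against 20.1 to 37.7 FPKM (log2 fold change 0.46, limma adjusted p = 0.304). *Cxcr2* was below 1 FPKM in every library. Markers of small peritoneal macrophages and monocytes summed to 514 to 1365 against 952 to 2399 FPKM (1 of 6 tested fell, *Irf4*), and T cell markers to 1.26 to 1.76 against 2.90 to 10.96 FPKM (1 of 2 tested fell, *Cd2*), with *Cd3e*, *Cd3d*, *Cd3g* and *Cd247* below 1 FPKM in every library. Neither *Irf4* nor *Cd2* passed with voom. Mesothelial and fibroblast markers summed to 11.6 to 30.1 against 2.06 to 12.4 FPKM (0 of 3 tested passed, and 2 with the block), and of the 6 macrophage markers *Fcgr1* rose. The part of these cells in the changes of *Naip2*, *Nlrc4* and *Casp4* was not tested, and in bulk libraries fewer cells of a type and less RNA per cell cannot be told apart. The genes most like *Naip2* over the 6 libraries, among 5453 compared, were *Akr1c13*, *Gsta3* and *Gss*, with Pearson correlations of 0.999, 0.997 and 0.996 of log2(FPKM + 1). These values describe 6 points that fall into the 2 groups. *Gsta3* and *Gss* encode enzymes of glutathione conjugation and synthesis, and *Akr1c13* an aldo-keto reductase. *Gss* was at 5.33 to 9.66 FPKM in the knockout and 29.3 to 54.7 FPKM in the control libraries.

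*Aim2* (Entrez 383619) encodes the sensor of double-stranded DNA in the cytosol. Its levels in the knockout libraries, 10.2, 11.6 and 8.16 FPKM, all exceeded those in the controls, 6.64, 6.78 and 3.73 FPKM. The means were 10.002 ± 1.75 and 5.72 ± 1.72 FPKM (SD, n = 3 each). The log2 fold change of 0.74 (95% confidence interval 0.20 to 1.27) had an adjusted p of 0.0944 from limma. With the replicate number as a block, a pairing that no label states, the adjusted p was 0.0332, and 9.47% of all genes tested passed in that fit. Over the other alternatives it lay between 0.0776 and 0.319.

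*Nlrp3* (Entrez 216799), the sensor of potassium loss and membrane damage, measured 160.4, 137 and 183 FPKM under the knockout against 191, 186 and 211 FPKM in the controls. The groups did not overlap, but knockout library 3 came close to control library 2. The log2 fold change was -0.30 (95% confidence interval -0.64 to 0.05, adjusted p = 0.236 from limma). After rescaling by the median of ratios, which moved the median of all genes by 0.12, it was -0.15 (adjusted p = 0.529). The means, 160.2 ± 23.3 with and 196 ± 13.1 FPKM without the knockout (SD, n = 3 each), rested on at least 23550 reads in every library.

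*Nlrp1b* (Entrez 637515), the gene of the sensor NLRP1B, had the lowest level of the 9 genes. Knockout libraries 1 to 3 gave it 44, 14 and 36 reads and the controls 9, 25 and 45, which is 0.0933, 0.0295 and 0.0784 FPKM against 0.0203, 0.0572 and 0.111 FPKM. The groups overlapped. It stayed below the filter, and without the filter its adjusted p was 0.939 from limma. Its neighbour *Nlrp1a* is a close copy, so these few reads are uncertain.

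*Pycard* (Entrez 66824), the gene of the adaptor ASC, gave 10.3, 10.1 and 13.0 FPKM in the knockout and 14.7, 12.6 and 7.67 FPKM in the control group. Control library 3 was the lowest and control library 1 the highest of the 6. The log2 fold change of -0.03 (95% confidence interval -0.58 to 0.52, adjusted p = 0.947 from limma) changed sign with the scaling, to 0.10 after the rescaling and with voom.

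Of the 2 inflammatory caspases, *Casp4* passed the test and *Casp1* did not. For *Casp4* (Entrez 12363) the knockout libraries gave 139, 134 and 95.2 FPKM, and the control libraries 78.0, 68.0 and 58.6 FPKM. The lowest knockout library exceeded the highest control, and the means of 123 ± 23.8 and 68.2 ± 9.68 FPKM (SD, n = 3 each) lay 1.80-fold apart. Its log2 fold change was 0.83 (95% confidence interval 0.38 to 1.27, adjusted p = 0.0445 from limma), just inside the threshold. It rose to 0.97 after the rescaling with an adjusted p of 0.0591, and the adjusted p was 0.0695 without a filter on low values and 0.0614 with voom. The call was also lost without knockout library 1, knockout library 2, control library 2 or control library 3 (adjusted p = 0.177, 0.190, 0.153 and 0.0504), where the log2 fold change was 0.72 to 0.83.

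*Casp1* (Entrez 12362) lies next to *Casp4* on the chromosome. Its knockout values were 112, 116 and 86.5 FPKM, and its control values 107, 109.9 and 69.3 FPKM. The groups overlapped, and library 3 was the lowest of each. The log2 fold change was 0.15 (95% confidence interval -0.36 to 0.66, adjusted p = 0.679 from limma), and it was -0.06 without control library 3. Within a library, the ratio of *Casp4* to *Casp1* FPKM was 1.24, 1.15 and 1.10 under the knockout and 0.727, 0.619 and 0.847 without it. This ratio, chosen after the values were seen, did not overlap between the groups (two-sided exact permutation p = 0.1, the smallest possible).

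*Gsdmd* (Entrez 69146), the gene of the pore protein that both caspases cut, had 66.5, 55.8 and 50.7 FPKM in the knockout group beside 65.0, 55.7 and 49.4 FPKM in the control group. The ranges overlapped almost wholly, and the means were 57.7 ± 8.07 and 56.7 ± 7.86 FPKM (SD, n = 3 each). On the log2 scale the difference was 0.02 (-0.35 to 0.40, 95% confidence interval), with an adjusted p of 0.937 in limma.

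**Figure D3:**
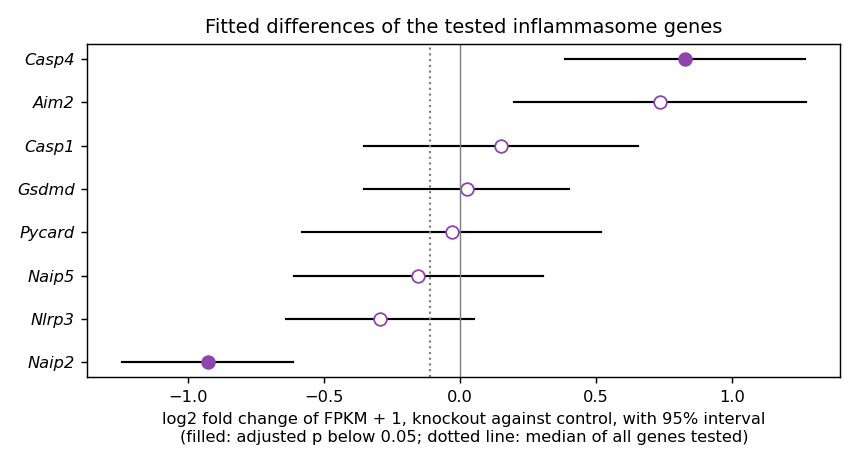
Log2 fold change of FPKM + 1 (knockout against control) for the 8 tested genes, with 95% confidence intervals from limma, filled where the adjusted p was below 0.05, and a dotted line at the median of all genes tested (-0.11). *Casp4* at 0.83 and *Naip2* at -0.93 are filled, and the intervals of 5 genes include 0.

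The windows before the start sites of *Casp4* and *Aim2* are shown because these genes were the higher ones. Again they are the 250 bases before the RefSeq start (GRCm38.p6), 5′ to 3′ along the gene. Capitals mark the NF-κB consensus in *Casp4* and the ETS site AGGAAGT in *Aim2*.

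Casp4 (chr9:5308599-5308848, plus strand): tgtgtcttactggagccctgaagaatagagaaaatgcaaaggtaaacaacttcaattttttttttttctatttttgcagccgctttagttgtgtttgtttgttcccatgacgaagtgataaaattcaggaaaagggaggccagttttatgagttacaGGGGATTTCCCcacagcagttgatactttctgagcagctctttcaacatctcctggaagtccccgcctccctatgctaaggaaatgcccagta
Aim2 (chr1:173420354-173420603, plus strand): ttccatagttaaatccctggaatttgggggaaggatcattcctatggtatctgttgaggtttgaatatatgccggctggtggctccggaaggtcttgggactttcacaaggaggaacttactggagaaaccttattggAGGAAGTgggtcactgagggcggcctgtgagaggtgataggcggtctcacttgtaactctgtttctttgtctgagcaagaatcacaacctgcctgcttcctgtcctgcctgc

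In *Casp4* a pair of overlapping matches to the NF-κB consensus began 93 and 92 bases before the start, and in *Aim2* the ETS match began 112 bases before it. Of the 8 genes with a window, 3 (*Casp4*, *Nlrp3* and *Naip5*) held the NF-κB consensus, as did 4.995% of all windows. None of the 8 held the core of the interferon-stimulated response element (GAAANNGAAA, in 2.98% of all windows) or a gamma-activated site (TTCNNNGAA, in 7.02%), which says only that these letters are not in these windows. The motifs were searched on both strands and were chosen after the values of the genes were known.

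The other genes of the pathway were followed in 6 lists of 63 genes, of which 47 were tested and 6 passed, 2 higher and 4 lower, beside 7.31% of all genes tested (2.57% higher and 4.74% lower). Of the other sensors, *Nlrc4* was the only one of 3 tested to pass. *Mefv*, which encodes pyrin, was at 37.5 ± 8.35 against 30.9 ± 1.92 FPKM (SD, n = 3 each; adjusted p = 0.391 from limma), and *Nlrp10*, *Nlrp12* and *Nlrp1a* stayed below the filter.

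Of 15 triggers and regulators tested, 3 fell and none rose past the threshold, and 7 had a higher and 8 a lower mean. *Panx1*, the gene of a channel that releases ATP, fell from 16.1 ± 3.09 to 4.07 ± 1.31 FPKM (SD, n = 3 each; log2 fold change -1.77, adjusted p = 0.0110 from limma). *Kcnk6*, the gene of the potassium channel TWIK2, fell from 6.61 ± 0.98 to 2.96 ± 0.28 FPKM (log2 fold change -0.94, adjusted p = 0.0157). *Serpinb1a*, which encodes an inhibitor of neutrophil proteases and inflammatory caspases, fell from 4.82 ± 1.07 to 1.60 ± 0.51 FPKM (log2 fold change -1.16, adjusted p = 0.0216). *Panx1* lost the threshold without knockout library 1 or control library 2 (adjusted p = 0.0586 and 0.0801), and *Kcnk6* and *Serpinb1a* lost it without knockout library 1, knockout library 2 or control library 2 (0.0554 to 0.112). *Serpinb1a* also lost it without knockout library 3 (0.0505) and without the filter on low values (0.0511).

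The guanylate-binding proteins *Gbp2*, *Gbp3*, *Gbp5* and *Gbp7*, which are induced by interferon and bring caspase-11 to LPS, were all higher in mean, with log2 fold changes of 0.96 to 1.12 and adjusted p of 0.0598 to 0.199. Without control library 3 the log2 fold changes were 0.59 in *Gbp2*, 0.46 in *Gbp3*, 0.44 in *Gbp7* and 0.81 in *Gbp5*, which then passed (adjusted p = 0.0377), as it also did without control library 1 (0.0487). *Gbp5* reached 495, 562 and 369 FPKM under the knockout and 274, 259 and 138 FPKM in the controls. The groups did not overlap in any of the 4, against 34.1% of all genes tested, though in *Gbp2* the lowest knockout library, at 323 FPKM, was close to the highest control at 321 FPKM, and likewise in *Gbp3* (148 and 146 FPKM). With the replicate block *Gbp5* and *Gbp2* passed (adjusted p = 0.020 and 0.0422). The choice to name the *Gbp* genes came after the values were known.

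None of the 3 cytokines released on pyroptosis passed in limma, with voom or with the block, and 0 had an unadjusted p below 0.05. Over all genes tested, 2494 of 9030 had an unadjusted p below 0.05 in limma. *Il18* was at 12.2 ± 2.98 against 7.11 ± 4.66 FPKM (SD, n = 3 each; log2 fold change 0.90, adjusted p = 0.275). Leaving out control library 3 brought it to 0.30 on the log2 scale, beside -1.09 in *Il1b* and -0.76 in *Il1a*, whereas leaving out control library 1 turned *Il1b* and *Il1a* to 0.24 and 0.23. *Il1b*, with 1410, 916 and 653 FPKM under the knockout and 2625, 1536 and 418 FPKM in the controls, overlapped between the groups (log2 fold change -0.33, adjusted p = 0.765), and was named after its values were seen. Of the other lysis proteins and caspases 6 were tested and none passed, in limma, with voom or with the block. The unadjusted p in limma was below 0.05 in 0 of the 6, beside 2494 of 9030 over all genes. Of 5 necroptosis genes none passed in these 3 fits either. The unadjusted p in limma was below 0.05 in 1 of the 5, *Ripk3*, beside the same 2494 of 9030. *Zbp1*, the sensor that engages RIPK3, was at 138 ± 24.4 against 84.7 ± 44.5 FPKM (adjusted p = 0.209 from limma).

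Of 15 priming receptors and transcription factors, 2 passed, both higher. With the replicate block 3 passed, since *Irf2* was added (adjusted p = 0.0372 from limma, 0.0571 without the block). *Irf2* was named after its values were seen. *Irf1*, an interferon-induced factor that controls *Gbp* genes and *Aim2* activation in infected macrophages, rose from 72.5 ± 6.03 to 176 ± 12.7 FPKM (SD, n = 3 each; log2 fold change 1.27, adjusted p = 0.00651 from limma). The knockout libraries gave 187, 179.8 and 162 FPKM, and the controls 75.3, 65.6 and 76.7 FPKM. *Irf1* passed in every fit but those without knockout library 1 (adjusted p = 0.0519) and without control library 2 (0.0551). *Stat2*, a carrier of the type I interferon signal, rose from 37.0 ± 13.9 to 86.4 ± 11.7 FPKM (log2 fold change 1.26, adjusted p = 0.0383), and it fell short after the rescaling (0.0521), with voom (0.0573), without the filter (0.0695) and without knockout library 1, 2 or 3 or control library 2 (0.0663 to 0.154). *Irf8*, which drives *Naip* genes, was at 22.4 ± 6.53 against 15.4 ± 2.17 FPKM (adjusted p = 0.213), and was named after its values were seen.

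**Figure D4:**
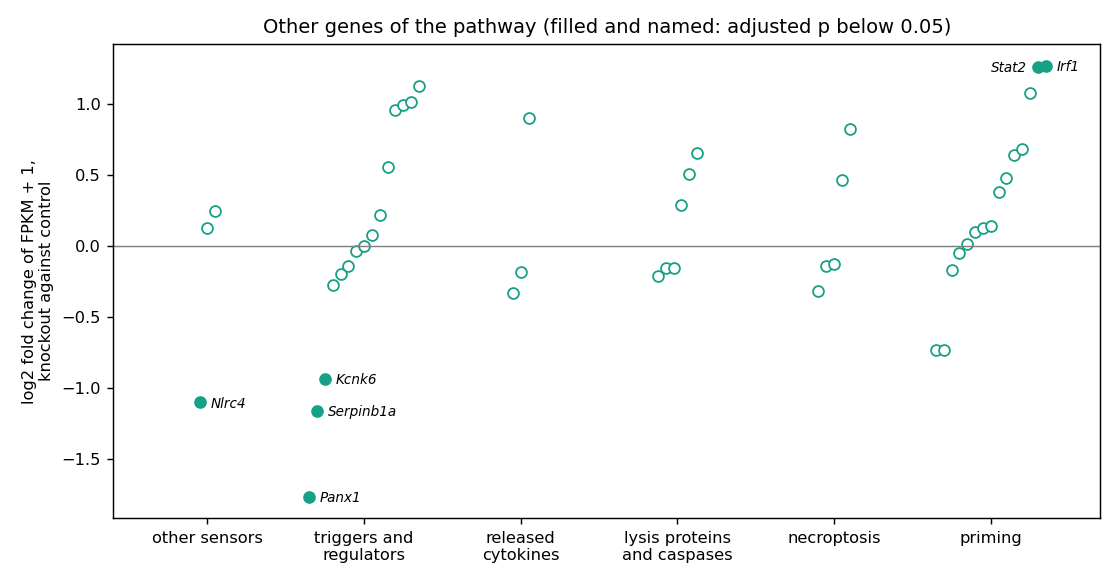
Log2 fold change of FPKM + 1 (knockout against control) of the 47 tested genes in the 6 other lists, 1 point per gene, filled and named where the adjusted p was below 0.05. The 4 named decreases are *Nlrc4*, *Panx1*, *Kcnk6* and *Serpinb1a*, and the 2 named increases are *Irf1* and *Stat2*.

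**Figure D5:**
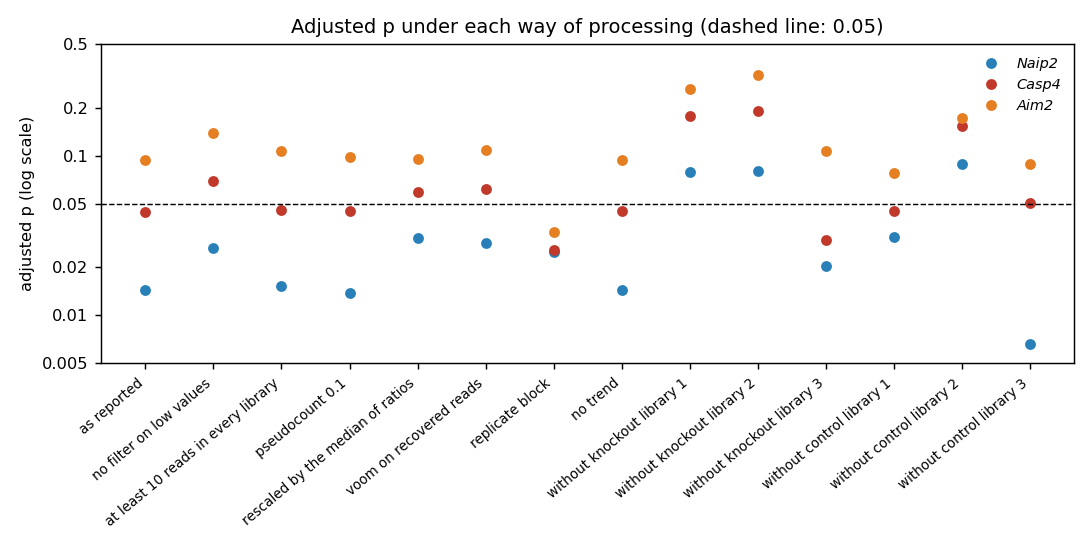
Adjusted p (log scale) of *Naip2*, *Casp4* and *Aim2* in the fit as reported and in the 13 alternatives, with a dashed line at 0.05. *Naip2* is below the line in all but 3 alternatives, *Casp4* in 6 of 13, and *Aim2* only with the replicate block (0.0332).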

How the data were processed

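RNA of PEMs was sequenced in 6 libraries, 3 for each genotype. The authors deposited FPKM per gene and library and, as a signal, group means of read counts divided by DESeq2 size factors. Their own test results (fold change with p and q for each gene) stand in the same table and were not used. The submitters' processing notes name the build mm9. The aligner, counting and annotation are not given in the sources used here. The reads behind each value were worked back from FPKM and group means (100% of values within 0.01 of a whole number).

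For the test, limma 3.58.1 under R 4.3.3 was applied to log2(FPKM + 1), using lmFit and a trended eBayes. It took the 9030 genes whose mean reached 1 FPKM in one group, with Benjamini-Hochberg adjustment over all of them and a threshold of 0.05. The fold changes understate those of low genes. The fit was checked on simulated reads. The members, lists and tests were chosen with earlier results of these data known. Named were all 9 members, genes of the other lists past the threshold or with the largest change of their list, *Timd4*, *Lyz2* and the 3 genes most alike to the member with the smallest adjusted p (mean of at least 5 FPKM). One gene that this rule names is not reported here. Markers were fixed for 8 cell types or states.

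Replicate numbers were taken to pair the libraries from a check of the data: deviations from the group mean correlated between knockout and control at 0.109, 0.1095 and 0.304 for numbers 1, 2 and 3, each above 0.1. Libraries with different numbers gave -0.332 to 0.291, the highest between knockout 2 and control 1, above the values of numbers 1 and 2. No label states a pairing. Alternatives were no filter, at least 10 reads in every library, a pseudocount of 0.1, rescaling by the median of ratios, voom, the block, no trend, and each library left out.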

Additional observations from a re-analysis of the deposited data

How the results depend on the processing

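The counts rested on single libraries. Of the 9 genes, 2 passed as reported, and 1 passed without a filter on low values, after rescaling by the median of ratios and with voom. The count was 0 to 2 with each library left out, and 0 without knockout library 1, knockout library 2 or control library 2, where 8 to 63 of all genes passed. Over all genes 660 passed as reported and 8 to 1278 with each library left out. In the other lists 6 passed as reported and 0 to 8 with a library left out. The causes were not tested. With the replicate block 3 genes passed, since *Aim2* was added, and the pairing changed no other call among the 9. The block gave 855 over all genes and 9 in the other lists. The median log2 fold change of the 8 tested genes, -0.0030 as reported, lay between -0.16 and 0.14 over the alternatives. Small changes turned sign. *Pycard* was at 0.10 (0.102) after the rescaling and 0.0967 with voom, and between -0.28 and 0.15 with a library left out. *Casp1* ran from -0.063 to 0.28 and *Gsdmd* from -0.082 to 0.13 with a library left out. The directions of *Naip2*, *Casp4*, *Aim2*, *Nlrp3* and *Naip5* held in the 13 alternatives. Rescaling moved the share of higher calls over all genes from 35.2% to 51.3%. What size of difference 9 to 45 reads per library could show in *Nlrp1b* was not tested.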
